A study of Mus musculus with 8 samples.

Results

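The DNA replication machinery was followed through 39 genes chosen by symbol, from the licensing of origins to the supply of nucleotides, out of 23467 genes with a value in the RNA-sequencing table. All 39 genes were present and all had a mean over the libraries of at least 1 RPKM (reads of a gene scaled to its length and to the size of the library), as 13421 genes did. They fell into 4 origin licensing genes, 12 helicase genes, 8 polymerase genes, 11 genes of the sliding clamp, clamp loader, single-strand binding and Okazaki fragment joining, and 4 genes of nucleotide supply. The rule that chose them used no expression value, but the genes were chosen with earlier results of these data known.

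Hepatoblasts, the bipotent progenitors of the fetal liver, were isolated at E14.5 from control livers and from livers labelled L1L2_Alb (*Lats1*-/-; *Lats2* fl/fl; Alb-cre, in which Cre is driven by the albumin promoter) of a B6;129 mixed strain, and were grown on collagen (iHBs). Some were differentiated to hepatocytes (iHPs) with Oncostatin M at 12.5 ng/ml for 5 days, and others to biliary epithelial cells (iBECs) on Matrigel for 14 days. The 8 libraries were 1 control and 1 labelled L1L2_Alb of iHBs, 1 control and 2 labelled L1L2_Alb of iHPs, and 1 control and 2 labelled L1L2_Alb of iBECs. It is not stated whether a pair of libraries of 1 condition represents separate embryos, so the spread within a pair may be technical. Every p-value here measures only the spread between these libraries. In the fit of all 8 libraries with 1 genotype difference for all stages, this spread also holds how that difference varied between stages. That fit had 4 residual degrees of freedom, against 2 when the difference was free to vary by stage.

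Before a cell can copy its DNA, the origin recognition complex with Cdc6 and Cdt1 loads the Mcm2-7 ring onto origins in G1, and in S phase Cdc45 and the GINS complex turn that ring into the active helicase. Primase and polymerase alpha then lay down primers, polymerases delta and epsilon extend them behind the Pcna clamp that the Rfc complex loads, RPA covers the exposed single strand, and Fen1 and Lig1 process and seal the Okazaki fragments. Most of these genes are known to be transcribed together at the G1/S transition under E2F factors, and in the liver they are abundant in the growing fetal organ and low in resting adult hepatocytes.

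The depth recovered from the values of short genes was between 18436865 and 33229075 reads per library, lowest in the pair labelled L1L2_Alb iHP. Over the libraries labelled L1L2_Alb, the fitted difference of *Lats1* RNA was not below 0 (log2 difference 0.44, standard error 0.335, adjusted p = 0.46 by limma). Only L1L2_Alb iHP 2 was below its control, at 7.12 against 11.2 RPKM. *Lats2* RNA was higher in all 5 (log2 difference 0.90, standard error 0.203, adjusted p = 0.0312 by limma), so these libraries are named by their label throughout. RNA outside the deleted exons would still be counted, and these values therefore do not check the deletion. *Alb*, *Krt7* and *Krt19* were detected in all 8 libraries. The hepatocyte marker *Alb* was at 6162 RPKM in control iBEC against 3088 RPKM in control iHP. *Ttr* (371 against 217 RPKM), *Hnf4a* (99.5 against 64.4 RPKM) and *Tat* (25.7 against 7.05 RPKM) were also higher in control iBEC. So were *Serpina1a* (5386 against 4635 RPKM) and *Apoa1* (4404 against 4249 RPKM). Of 5 biliary markers, the keratins *Krt7* (62.3 RPKM) and *Krt19* (83.7 RPKM) in control iBEC were below control iHB (400 and 273 RPKM). *Epcam* was also below it, at 2.96 against 55.0 RPKM. *Sox9* (13.3 against 5.53 RPKM) and *Spp1* (23271 against 1706 RPKM) were above it. For 30 of the 39 genes, whole reads could be recovered to within 0.01 read, with 18 reads at the lowest (*Orc1* in L1L2_Alb iHP 2) and 11264 at the highest. Across these 30 genes the libraries of the L1L2_Alb iHP pair differed with a chi-square of 27.7 per gene and those of the L1L2_Alb iBEC pair with 105.2, both beyond counting noise. The higher value of the iBEC pair rested on *Rrm2*, and without the gene that differed most (*Rrm1* in iHPs, *Rrm2* in iBECs) the values were 20.5 and 28.6 per gene.

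The promoters of these genes are shown here for the 4 genes that passed the test of genotype, *Mcm2*, *Mcm5*, *Mcm6* and *Prim1*, and for *Rrm2*, whose values went the other way. The sequences are from RefSeq on the build GRCm38.p6, each the 250 bases before the start of the gene, 5′ to 3′ on the strand of the gene, with E2F letters (TTTCCCGC, TTTGGCGC, TTTGCCGC or TTTCGCGC on either strand) and CCAAT on either strand in capitals.
Mcm6 (chr1:128359706-128359955, minus strand): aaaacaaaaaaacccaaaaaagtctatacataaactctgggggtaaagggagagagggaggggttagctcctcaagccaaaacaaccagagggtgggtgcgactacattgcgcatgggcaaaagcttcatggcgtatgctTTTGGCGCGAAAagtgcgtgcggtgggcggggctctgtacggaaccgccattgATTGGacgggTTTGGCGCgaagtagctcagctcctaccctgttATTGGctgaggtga
Mcm5 (chr8:75109259-75109508, plus strand): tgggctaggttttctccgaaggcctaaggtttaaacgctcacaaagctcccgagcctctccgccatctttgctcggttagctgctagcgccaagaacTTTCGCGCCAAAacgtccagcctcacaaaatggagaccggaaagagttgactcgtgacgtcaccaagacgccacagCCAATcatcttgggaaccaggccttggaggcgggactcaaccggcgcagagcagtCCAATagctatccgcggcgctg
Mcm2 (chr6:88898781-88899030, minus strand): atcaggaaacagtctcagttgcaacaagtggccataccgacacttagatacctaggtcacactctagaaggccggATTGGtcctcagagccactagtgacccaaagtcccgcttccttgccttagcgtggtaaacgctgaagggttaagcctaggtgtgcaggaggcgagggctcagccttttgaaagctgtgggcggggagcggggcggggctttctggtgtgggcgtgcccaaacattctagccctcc
Prim1 (chr10:128014965-128015214, plus strand): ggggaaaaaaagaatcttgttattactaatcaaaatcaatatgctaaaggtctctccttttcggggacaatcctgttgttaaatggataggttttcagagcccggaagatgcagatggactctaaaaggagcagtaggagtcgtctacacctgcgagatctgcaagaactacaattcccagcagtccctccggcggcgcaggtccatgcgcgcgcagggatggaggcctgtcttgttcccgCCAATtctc
Rrm2 (chr12:24708004-24708253, plus strand): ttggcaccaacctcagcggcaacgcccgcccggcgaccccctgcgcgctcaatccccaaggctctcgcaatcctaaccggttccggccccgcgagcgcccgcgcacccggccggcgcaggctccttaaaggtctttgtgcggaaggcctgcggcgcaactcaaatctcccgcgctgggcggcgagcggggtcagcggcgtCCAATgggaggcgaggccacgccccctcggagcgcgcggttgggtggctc
The *Mcm6* stretch held E2F letters in 3 matches, of which 2 overlapped, and the *Mcm5* stretch in 2 overlapping matches. The *Mcm2*, *Prim1* and *Rrm2* stretches held none and had 1 CCAAT each, so 2 of the 4 genes that passed the test had E2F letters there and 2 did not.

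RefSeq promoters (250 bases before to 50 after a start) were matched for 32 of the 39 genes, and not for *Gins1*, *Gins2*, *Gins4*, *Mcm4*, *Pole*, *Prim2* and *Rfc2*. E2F letters stood in the promoters of 13 of the 32 genes (40.6%), against 2.6% of all 27025 genes with a promoter in the table. By role they stood in 3 of 4 origin licensing genes, 5 of 8 helicase genes, 3 of 6 polymerase genes, 2 of 10 clamp and associated genes and 0 of 4 nucleotide supply genes. CCAAT, the letters bound by NF-Y, stood in 21 of 32 (65.6%) against 41.1% of all genes, and GGAATG, the letters bound by the TEAD partners of YAP, in 3 of 32 (9.38%, *Lig1*, *Mcm3* and *Rpa2*) against 16.6%. *Mcm7* and *Mcm3* each held a further match that is not shown, 16 and 38 bases after the start. *Mcm7* and *Lig1* had further starts, and distances are to the start whose promoter held the match. For the other genes with E2F letters, a stretch around a match is shown next, with the E2F letters in capitals, to let the matches be compared.
Cdc6 (chr11:98908003-98908030, 138 bases before the start): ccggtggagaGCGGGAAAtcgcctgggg
Mcm7 (chr5:138172031-138172058, 165 bases before the start): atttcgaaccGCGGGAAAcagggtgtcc
Pola1 (chrX:93632276-93632303, 138 bases before the start): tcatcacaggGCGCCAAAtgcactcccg
Gins3 (chr8:95633508-95633535, 41 bases before the start): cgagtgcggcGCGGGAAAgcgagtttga
Orc1 (chr4:108579417-108579444, 27 bases before the start): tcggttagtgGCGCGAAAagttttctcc
Rfc3 (chr5:151651201-151651228, the first of 2 matches, 10 bases before the start): cgtcgcacgcTTTCGCGCtcGCGGGAAA
Pole2 (chr12:69228163-69228190, 10 bases after the start): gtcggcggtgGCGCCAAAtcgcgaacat
Mcm3 (chr1:20820276-20820303, 19 bases after the start): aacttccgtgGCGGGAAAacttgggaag
Lig1 (chr7:13278842-13278869, 26 bases after the start): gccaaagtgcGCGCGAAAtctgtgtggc
Cdt1 (chr8:122568037-122568064, 32 bases after the start): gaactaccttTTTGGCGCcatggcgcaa
Pold1 (chr7:44548766-44548786, 39 bases after the start): gtatcttgtgGCGGGAAAagc
With overlapping matches counted once, they lay from 165 bases before to 39 bases after the start, and 9 of 17 lay before it. As a description without a test, the fitted log2 difference between genotypes had a median of -0.79 (from -1.32 to -0.20) in the 13 genes with E2F letters and of -0.47 (from -1.27 to 0.79) in the 19 genes without.

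In control iHB the machinery was at its highest: for 34 of the 39 genes no library had a higher value, against 25.5% of the genes tested. With upper-quartile scaling this held for 26 genes, against 15.8%. *Pcna*, the sliding clamp, led at 123.5 RPKM, and *Mcm7* (56.0 RPKM), *Mcm6* (49.4 RPKM) and *Rrm2* (43.2 RPKM) came next, whereas *Orc1* (2.33 RPKM), the ATPase subunit of the origin recognition complex, and *Gins3* (2.49 RPKM) were lowest. The lowest value of a gene was in L1L2_Alb iHP 1 for 20 genes and in L1L2_Alb iHP 2 for 14. The median level of the 39 genes was 16.4 RPKM in control iHB, 12.8 RPKM in control iHP and 9.51 RPKM in control iBEC. In the libraries labelled L1L2_Alb it was 8.26 RPKM in iHB, 5.94 and 6.37 RPKM in iHP, and 7.82 and 10.2 RPKM in iBEC.

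**Figure D1:**
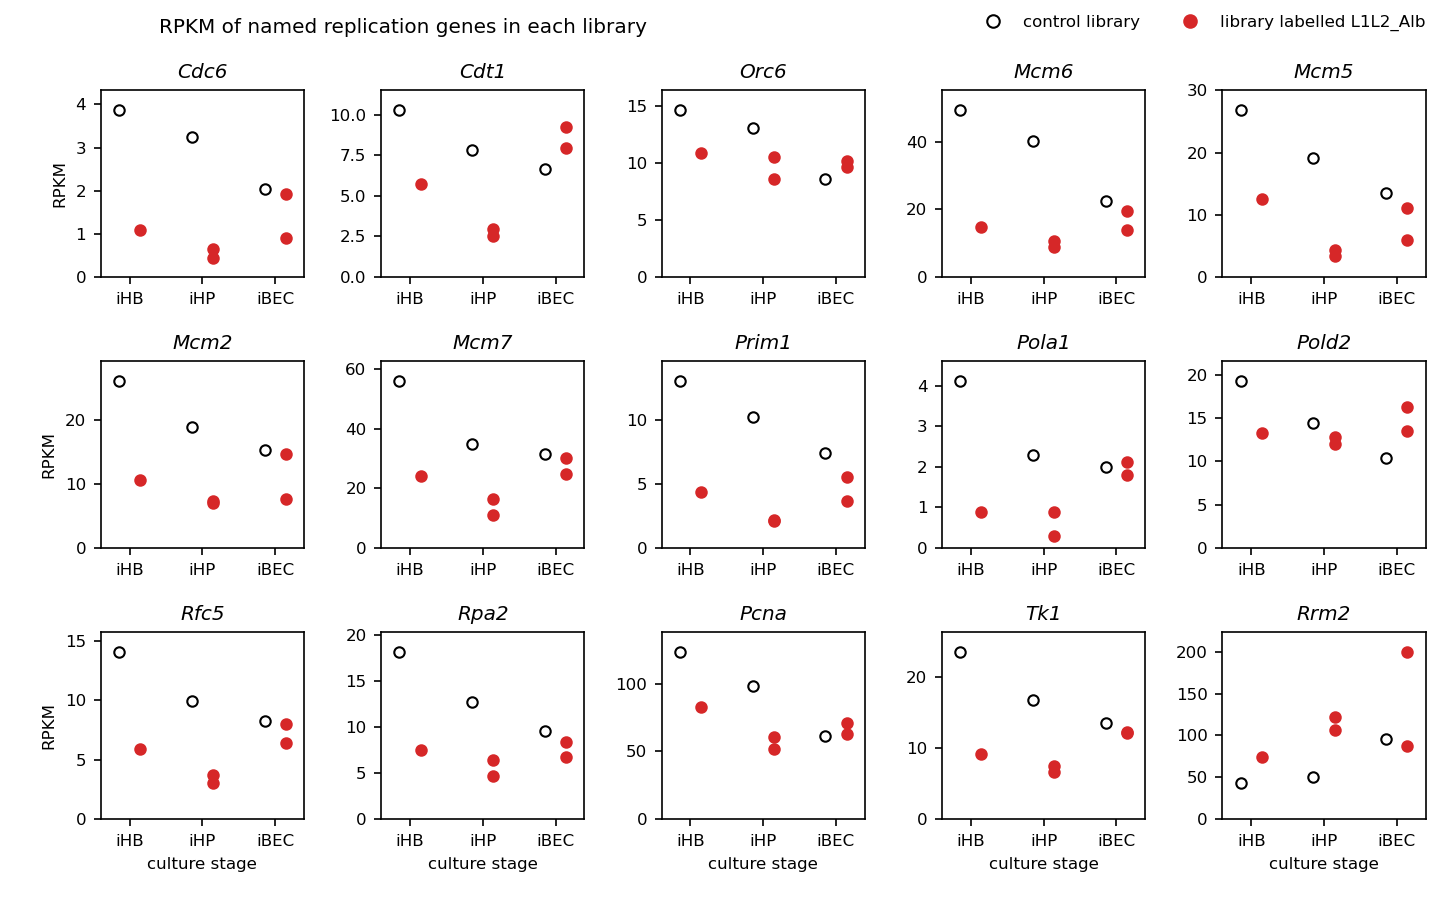
RPKM (vertical axes, each from 0) of 15 replication genes in the 8 libraries, by culture stage, with open circles for control libraries and filled circles for libraries labelled L1L2_Alb. In iHPs *Mcm6* lay at 8.84 and 10.7 RPKM under a control at 40.3 RPKM, and in iBECs at 13.9 and 19.6 RPKM under 22.4 RPKM. In iBECs both filled circles lay above the control for *Cdt1*, *Orc6*, *Pold2* and *Pcna*. They lay on either side of it for *Pola1* and *Rrm2*, and below it for the other genes. *Rrm2* was above its control in every library labelled L1L2_Alb except iBEC 2.

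To ask how the machinery differed between L1L2_Alb and control cells, the 8 libraries were fitted together by limma (values as log2(RPKM + 1), stage as a block), which gives the difference common to the 3 stages. *Mcm6*, *Mcm5* and *Mcm2*, subunits of the Mcm2-7 ring, and *Prim1*, the catalytic subunit of primase, fell, by between 0.98 and 1.32 on the log2 scale. No other gene of the 39 passed the test and none rose, against 3.37% of the 13421 genes tested that fell and 6.2% that rose. The fitted difference lay below 0 for 37 of the 39 genes, against 44.2% of all genes tested, with a median of -0.54 against 0.06 over all genes. At an unadjusted p under 0.05, 18 of the 39 genes were lower (10.2% of all genes tested) and 1, *Rrm2*, was higher. In these cultures fewer dividing cells and less of this RNA in each cell cannot be told apart.

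The number of genes that passed depended on the libraries and the scaling. It was 0 without L1L2_Alb iHP replicate 1, where 235 of 13468 genes tested fell, and 1, lower, without L1L2_Alb iHP replicate 2 (339 of 13509). Without L1L2_Alb iBEC replicate 1 it was 2, both lower (439 of 13378). Without L1L2_Alb iBEC replicate 2 it was 7, of which 6 fell and 1, *Rrm2*, rose. In that fit 313 of 13428 genes tested fell and 479 rose. With upper-quartile scaling of the libraries, which brought 612 genes called higher and 577 lower in place of 832 and 452, 11 of the 39 genes fell (4.3% of the genes tested), and with quantile normalization 12 (4.59%). The added genes under upper-quartile scaling were *Cdc45*, *Cdc6*, *Mcm3*, *Mcm7*, *Rfc5*, *Rpa2* and *Tk1*.

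**Figure D2:**
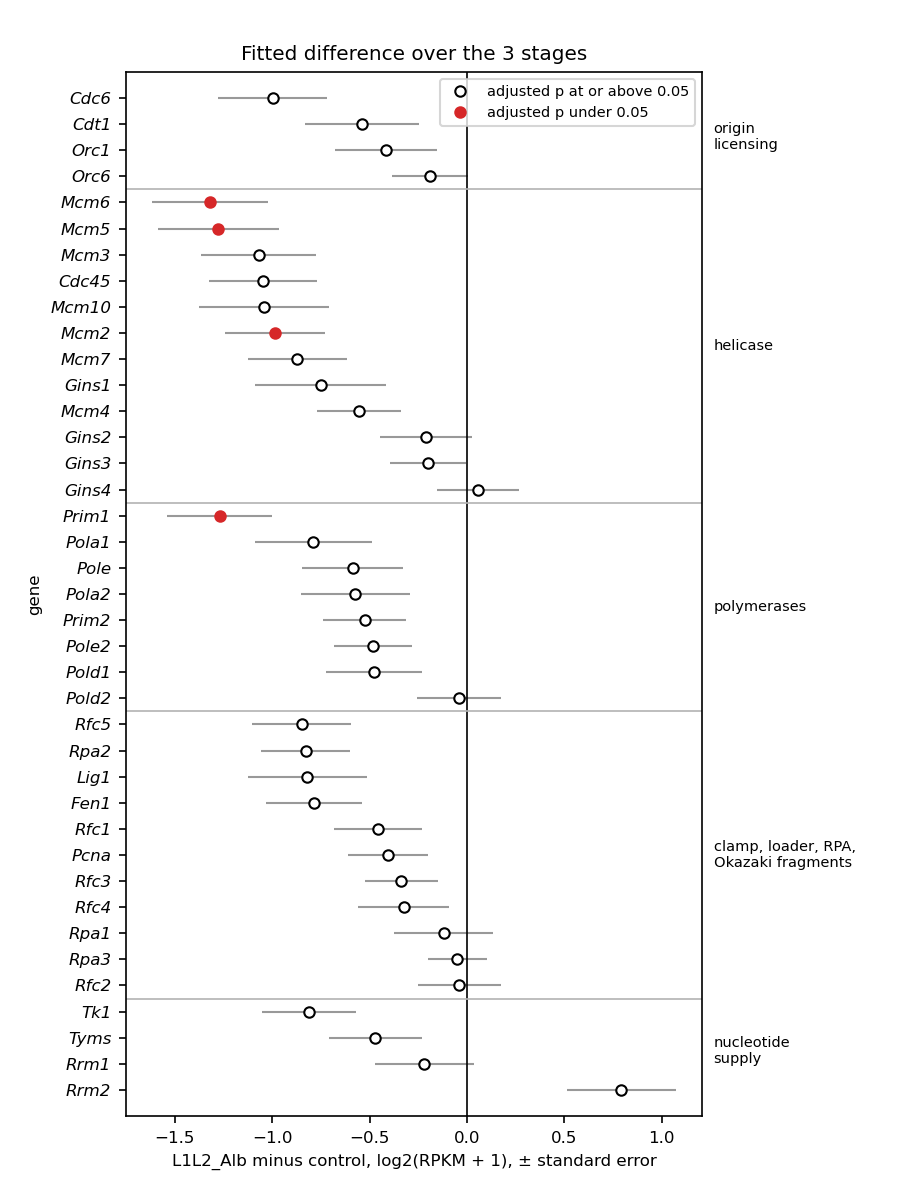
Fitted difference between L1L2_Alb and control libraries for each of the 39 genes on the log2(RPKM + 1) scale (horizontal axis), with bars of ± 1 standard error, grouped by role. Filled points, *Mcm6*, *Mcm5*, *Mcm2* and *Prim1*, had an adjusted p under 0.05, and only *Rrm2* and *Gins4* lay above 0.

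The replicative helicase held 3 of the 4 genes that passed. Here and in what follows, the level in the control library of a stage is given first and set against each library labelled L1L2_Alb of that stage. *Mcm6* was at 49.4 against 14.7 RPKM in iHBs, at 40.3 against 8.84 and 10.7 RPKM in iHPs, and at 22.4 against 13.9 and 19.6 RPKM in iBECs. Every library labelled L1L2_Alb was below the control of its stage, at ratios between 0.219 and 0.875, and all 5 were below all 3 controls. The fitted log2 difference was -1.32 (standard error 0.299, adjusted p = 0.0324 by limma).

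*Mcm5*, whose junction with *Mcm2* forms the gate through which the ring opens around DNA, was at 26.9 against 12.6 RPKM in iHBs. In iHPs its levels were 19.2 against 3.30 and 4.32 RPKM, and in iBECs 13.4 against 5.96 and 11.0 RPKM. All 5 libraries were below the 3 controls, and the gap was widest in iHPs, at ratios of 0.172 and 0.225 to the control. The fitted log2 difference was -1.28 (standard error 0.31, adjusted p = 0.0392 by limma).

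*Mcm2*, the other side of that gate, was at 26.1 against 10.5 RPKM in iHBs, at 18.9 against 7.02 and 7.32 RPKM in iHPs, and at 15.4 against 7.60 and 14.7 RPKM in iBECs. It was lower in 5 of 5 libraries, but L1L2_Alb iBEC 2 was within 0.956 of its control. The fitted log2 difference was -0.98 (standard error 0.257, adjusted p = 0.0498 by limma), just inside the threshold.

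*Mcm7*, the most abundant ring subunit in 7 of the 8 libraries, was at 56.0 against 24.0 RPKM in iHBs, at 34.98 against 16.5 and 11.1 RPKM in iHPs, and at 31.6 against 24.9 and 30.0 RPKM in iBECs. It was below the control in all 5 libraries (log2 difference -0.87, standard error 0.254, adjusted p = 0.0688 by limma). The fitted log2 differences of the other ring subunits were -1.07 for *Mcm3* (adjusted p = 0.0588 by limma) and -0.56 for *Mcm4* (adjusted p = 0.145 by limma). Within a library the 6 subunits of the ring, which assemble in equal numbers, differed in RPKM by up to 5.01-fold, in L1L2_Alb iHP 1, where *Mcm5* was lowest and *Mcm7* highest.

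The partners that activate the ring were split. *Cdc45*, which joins it at the start of S phase, went from 19.7 to 8.16 RPKM between the iHB libraries, and was at 12.2 RPKM against 3.35 and 2.84 RPKM in iHPs and at 9.09 RPKM against 6.11 and 8.35 RPKM in iBECs. It was lower in 5 of 5 libraries and just outside the threshold (log2 difference -1.05, adjusted p = 0.0517 by limma). *Mcm10*, an initiation factor needed to start the helicase, had a log2 difference of -1.04 (adjusted p = 0.0886 by limma), with 0.403 RPKM in L1L2_Alb iHP 2. Of the 4 GINS subunits, *Gins1* was at -0.75, *Gins2* at -0.21, *Gins3* at -0.20 and *Gins4* at 0.06 on the log2 scale, with adjusted p between 0.206 and 0.901 by limma. Although GINS is a complex of 1 copy of each, *Gins4* was the highest and *Gins3* the lowest in every library, with a ratio between 9.26 and 17.8 in RPKM.

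Among the origin licensing genes none passed the test. *Cdc6*, the ATPase that loads the ring, was at 3.87 against 1.10 RPKM in iHBs, at 3.25 against 0.647 and 0.431 RPKM in iHPs, and at 2.04 against 0.913 and 1.92 RPKM in iBECs. It was lower in 5 of 5 libraries, with the lowest ratio, 0.133, in L1L2_Alb iHP 2 (log2 difference -0.998, standard error 0.28, adjusted p = 0.0617 by limma). *Cdt1*, its partner in loading, was at 10.3 against 5.74 RPKM in iHBs and at 7.86 against 2.55 and 2.96 RPKM in iHPs. In iBECs, however, both libraries labelled L1L2_Alb were higher, at 9.26 and 7.96 RPKM, than the control at 6.68 RPKM (fitted log2 difference over the stages -0.54, standard error 0.294, adjusted p = 0.295 by limma).

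*Orc6*, a subunit of the origin recognition complex and the most abundant gene of this group, moved least. It was at 14.7 and 10.9 RPKM in the iHB libraries, at 13.1 RPKM against 10.5 and 8.62 RPKM in iHPs, and at 8.57 RPKM against 9.63 and 10.2 RPKM in iBECs (log2 difference -0.19, standard error 0.194, adjusted p = 0.595 by limma). *Orc1* was lower in 5 of 5 libraries, with a log2 difference of -0.41 (adjusted p = 0.369 by limma), and its L1L2_Alb iHP libraries lay apart, at 1.39 and 0.28 RPKM.

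Of the polymerase genes, *Prim1* passed the test with the smallest p of all 39 genes. It was at 13.1 against 4.41 RPKM in iHBs, at 10.3 against 2.16 and 2.08 RPKM in iHPs, and at 7.42 against 3.68 and 5.55 RPKM in iBECs. All 5 libraries were below all 3 controls, and the log2 difference was -1.27 (standard error 0.269, adjusted p = 0.0257 by limma). *Prim2*, the regulatory subunit of the same primase, had a log2 difference of -0.53 (adjusted p = 0.163 by limma) and was also lower in 5 of 5 libraries.

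*Pola1*, the catalytic subunit of polymerase alpha, was at 4.11 against 0.886 RPKM in iHBs, at 2.30 against 0.294 and 0.895 RPKM in iHPs, and at 1.99 against 1.80 and 2.13 RPKM in iBECs. The iHB and iHP values lay below all controls and the iBEC values around theirs (log2 difference -0.79, standard error 0.301, adjusted p = 0.141 by limma). *Pold2*, the accessory subunit of polymerase delta, was at 19.2 and 13.2 RPKM in the iHB libraries and at 14.47 RPKM against 12.8 and 12.0 RPKM in iHPs. In iBECs it was higher in both libraries labelled L1L2_Alb, at 16.3 and 13.4 RPKM against 10.4 RPKM in the control, and its log2 difference over the stages was -0.04 (standard error 0.215, adjusted p = 0.93 by limma). *Pola2*, *Pold1*, *Pole* and *Pole2*, further subunits of polymerases alpha, delta and epsilon, had log2 differences between -0.59 and -0.47 and did not pass.

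In the group of the clamp, the levels of *Pcna* were 123.5 against 83.0 RPKM in iHBs, 98.6 against 60.7 and 51.9 RPKM in iHPs, and 61.8 against 71.1 and 62.9 RPKM in iBECs. *Pcna* was thus lower in iHBs and iHPs and not in iBECs, and did not pass the test (log2 difference -0.41, standard error 0.207, adjusted p = 0.262 by limma). The annotation names processed pseudogenes of *Pcna* and of *Tyms*, and how shared reads were counted is not stated.

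*Rpa2*, the middle subunit of RPA, was at 18.1 against 7.49 RPKM in iHBs, at 12.8 against 4.69 and 6.37 RPKM in iHPs, and at 9.51 against 6.70 and 8.31 RPKM in iBECs (log2 difference -0.83, standard error 0.229, adjusted p = 0.0587 by limma). It was lower in 5 of 5 libraries, while its partners *Rpa1* and *Rpa3* were lower in 2 and 3 of 5, with log2 differences of -0.12 and -0.05. The subunits of this trimer were within 1.63-fold of each other in control iHB and up to 4.03-fold apart in L1L2_Alb iHP 2.

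The clamp loader showed the same kind of spread. *Rfc5* was at 14.1 against 5.92 RPKM in iHBs, at 9.93 against 3.07 and 3.74 RPKM in iHPs, and at 8.28 against 6.43 and 8.05 RPKM in iBECs (log2 difference -0.85, standard error 0.253, adjusted p = 0.0734 by limma). *Rfc1*, the large subunit, was at -0.46, *Rfc3* at -0.34, *Rfc4* at -0.33 and *Rfc2* at -0.04 on the log2 scale. *Rfc2* was the highest loader subunit in every library, and in L1L2_Alb iHP 2 it was 7.25 times the lowest, *Rfc5*. *Fen1*, the flap nuclease, had a log2 difference of -0.79 (adjusted p = 0.0836 by limma) and was lower in 5 of 5 libraries, and *Lig1*, the ligase, of -0.82 (adjusted p = 0.133 by limma), lower in 4 of 5. In the annotation the exons of *Fen1* and *Gins2* overlap genes of the other strand over 78.8% and 70.7% of their bases, and since the library kit does not mark strand, reads of the overlapping genes cannot be told apart.

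The genes of nucleotide supply lay on both sides of 0. *Tk1*, the cytosolic thymidine kinase of S phase, was at 23.4 against 9.09 RPKM in iHBs, at 16.8 against 6.59 and 7.45 RPKM in iHPs, and at 13.4 against 12.3 and 12.1 RPKM in iBECs. It was lower in 5 of 5 libraries (log2 difference -0.81, standard error 0.242, adjusted p = 0.0728 by limma). *Tyms*, thymidylate synthase, had a log2 difference of -0.47 (adjusted p = 0.262 by limma).

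*Rrm2*, the small subunit of ribonucleotide reductase, had values on the other side of the control. It was at 43.2 against 73.6 RPKM in iHBs, at 50.7 against 107 and 122 RPKM in iHPs, and at 96.2 against 200 and 87.6 RPKM in iBECs. It was higher than the control in 4 of 5 libraries, at ratios up to 2.41, and just below it in L1L2_Alb iBEC 2. The fitted log2 difference was 0.79 (standard error 0.28, adjusted p = 0.116 by limma), and it reached 1.00 with an adjusted p of 0.0268 by limma without L1L2_Alb iBEC replicate 2. *Rrm1*, the large subunit of the same enzyme, was at 31.8 against 20.7 RPKM in iHBs, at 23.2 against 13.0 and 23.6 RPKM in iHPs, and at 22.2 against 30.7 and 22.4 RPKM in iBECs. It was thus lower than the control in 2 of 5 libraries and higher in 3, with a log2 difference of -0.22 (adjusted p = 0.649 by limma). The ratio of the 2 subunits was therefore not the same in all libraries, with *Rrm2* the most abundant of the 39 genes in both libraries labelled L1L2_Alb iHP and in all 3 of iBECs.

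The differences were largest in value in iHBs and iHPs and smallest in iBECs. In a single stage each library labelled L1L2_Alb was set against the 1 control library, which allows no test. In iHBs 38 of the 39 genes were lower, with a median log2 difference of -0.81 against -0.09 over all genes tested, and 15 genes were below -1. In iHPs 38 and 32 genes were lower, with medians of -0.82 and -0.90 against 0.01 and -0.03, and 17 and 16 genes were below -1. In iBECs 27 and 21 genes were lower, with medians of -0.12 and -0.01 against 0.22 and 0.26 over all genes, and only *Mcm5* in L1L2_Alb iBEC 1 was below -1. With upper-quartile scaling the medians were -0.79 in iHB, -0.90 and -0.96 in iHPs and -0.27 and -0.23 in iBECs, with 30 and 34 genes lower in the iBEC libraries, and the medians over all genes were 0.09 and 0.05 there.

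The helicase genes had the lowest median of the 5 roles in every library labelled L1L2_Alb except iBEC 2. For them the median log2 difference reached -1.16 in iHB and -1.25 and -1.42 in the iHP libraries, and was -0.42 and -0.00498 in those of iBECs. The medians of the other 4 roles lay between -0.71 and -0.61 in iHB and between -1.04 and -0.48 in iHPs. In iBECs these lay between -0.11 and 0.32 in the library numbered 1 and between -0.13 and 0.08 in that numbered 2.

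**Figure D3:**
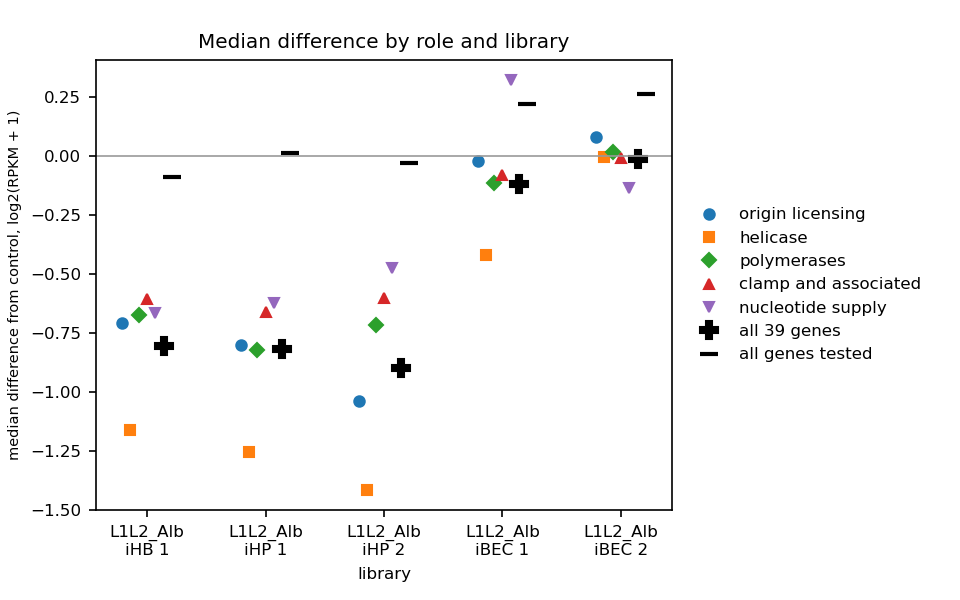
Median log2(RPKM + 1) difference from the control library of the same stage (vertical axis) for each library labelled L1L2_Alb, by role, for all 39 genes (crosses) and for all 13421 genes tested (dashes). The crosses lay at -0.81 in iHB and at -0.82 and -0.90 in iHPs, below the dashes, and at -0.12 and -0.01 in iBECs, where the dashes lay at 0.22 and 0.26.

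Over the 5 libraries, 17 of the 39 genes were lower than the control in all 5, against 10.1% of the genes tested, and 10 more in 4. None was higher in all 5, against 22.9% of the genes tested. The 17 genes were *Orc1* and *Cdc6*, *Mcm2*, *Mcm5*, *Mcm6*, *Mcm7*, *Mcm10* and *Cdc45*, *Prim1*, *Prim2*, *Pole* and *Pole2*, *Rfc3*, *Rfc5*, *Rpa2* and *Fen1*, and *Tk1*. The L1L2_Alb libraries of a stage share their control, so these 5 differences are not independent.

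**Figure D4:**
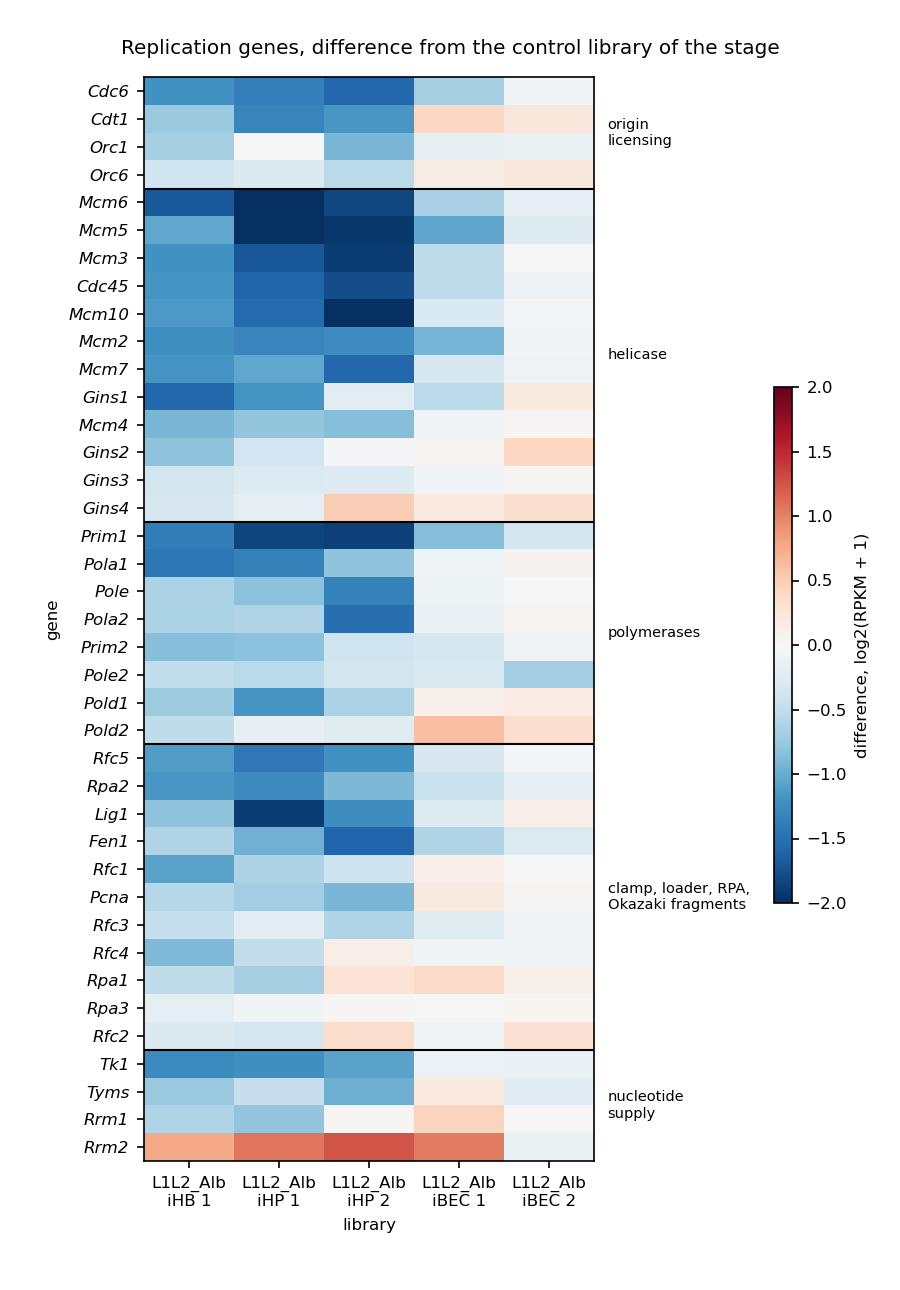
Difference in log2(RPKM + 1) between each library labelled L1L2_Alb (columns) and the control library of its stage for the 39 genes (rows, by role), with blue below 0 and red above 0 and the colors ending at -2 and 2. Blue filled the iHB and iHP columns except for *Rrm2* and, in L1L2_Alb iHP 2, a few genes such as *Gins4*, while the iBEC columns held both colors.

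The difference between stages was also tested itself. Among the 39 genes and among all 13421 genes tested, the interaction of genotype and stage passed for 0 genes (0% of the genes tested, moderated F test of limma with 2 residual degrees of freedom), with 733 genes and 2 of the 39 at an unadjusted p under 0.05. The 2 genes were *Cdt1* (adjusted p = 0.895 by limma) and *Mcm6* (adjusted p = 0.909 by limma). With the iBEC libraries left out, 13 of the 39 genes fell and *Rrm2* rose in L1L2_Alb, against 6.8% of the genes tested there that fell and 4.1% that rose (for *Rrm2*, log2 difference 0.99, standard error 0.247, adjusted p = 0.047 by limma), and *Mcm6* had a log2 difference of -1.83 (adjusted p = 0.00763 by limma). The other 12 genes that fell there were *Cdc6*, *Cdc45*, *Mcm2*, *Mcm3*, *Mcm5*, *Mcm7*, *Mcm10*, *Pola1*, *Prim1*, *Rfc5*, *Rpa2* and *Tk1*. With the iHP or the iHB libraries left out, none of the 39 genes passed.

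The contrast of L1L2_Alb iBECs with L1L2_Alb iHPs was the only one with 2 libraries on both sides. None of the 39 genes passed, against 2.96% of the genes tested that were higher and 0.447% that were lower in iBECs. The values were above 0 for 38 of the 39 genes, with a median log2 difference of 0.52 against -0.01 over all genes, and 12 genes had an unadjusted p under 0.05, all of them higher in iBECs. *Cdt1*, at 9.26 and 7.96 RPKM in iBECs against 2.55 and 2.96 RPKM in iHPs, was closest (log2 difference 1.36, standard error 0.299, adjusted p = 0.0584 by limma), followed by *Cdc45* (1.00, adjusted p = 0.144 by limma) and *Mcm7* (0.96, adjusted p = 0.154 by limma). With upper-quartile scaling *Cdt1* passed (log2 difference 1.46, adjusted p = 0.0488 by limma). *Gins3* was the gene below 0, at -0.18.

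Over both genotypes, no gene of the machinery passed the test between the stages. Between iHPs and iHBs 0 of the 39 genes and 0% of the genes tested passed by limma, with 1158 genes at an unadjusted p under 0.05, 4 of them among the 39 and lower in iHPs, namely *Mcm5*, *Mcm7*, *Cdc45* and *Lig1*. The difference was below 0 for 37 of the 39 genes (67.9% of all genes), with a median of -0.45 against -0.15. *Mcm5* had the lowest value at -1.12 (adjusted p = 0.476 by limma).

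Between iBECs and iHBs none of the 39 genes passed by limma, against 2.94% of the genes tested that were higher and 2.78% that were lower in iBECs, and 1 of the 39, *Rrm2*, had an unadjusted p under 0.05 (log2 difference 0.93, adjusted p = 0.156). Without L1L2_Alb iBEC replicate 2, *Rrm2* passed (log2 difference 1.28, adjusted p = 0.0325 by limma). The difference lay below 0 for 30 of the 39 genes with a median of -0.15 against -0.25 over all genes, but for 16 with a median of 0.07 after upper-quartile scaling, which moved the median over all genes to -0.00446 and the genes called from 395 higher and 373 lower to 496 and 179. The direction of the machinery between these stages thus depended on the scaling. Among the control libraries alone, which give no test, 38 of the 39 genes were lower in iHP than in iHB (median -0.38 against -0.18 over all genes, of which 76.2% were lower) and 37 in iBEC than in iHB (median -0.71 against -0.44, with 79.8% lower). The comparisons with iHBs share those libraries.

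Other genes that act at the fork or at G1/S were read from lists chosen by function. Of 44 further replication genes tested, 6 fell and none rose in L1L2_Alb libraries, against 3.37% and 6.2% of all genes tested. Their median log2 difference was -0.41, with 36 below 0 and 8 above. The highest was *Rrm2b* at 0.84 (adjusted p = 0.0522 by limma). The 6 that fell were *Top2a*, the topoisomerase that untangles sister chromatids (-1.44, adjusted p = 0.0272 by limma), *Uhrf1*, which guides maintenance methylation (-1.23), *Dna2*, a flap nuclease (-1.23), *Timeless* (-1.12) and *Clspn* (-1.06), which protect the fork, and *Chaf1a*, a chromatin assembly factor (-0.91). Of 22 E2F and G1/S regulators, 15 were below 0 and 7 above, with a median of -0.29. None rose and 3 fell: *E2f2*, an activator E2F (-1.19, adjusted p = 0.0402 by limma), *E2f8*, a repressor E2F (-1.13, adjusted p = 0.0473 by limma), and *Ccna2*, cyclin A2 (-1.12, adjusted p = 0.0453 by limma).

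Markers of dividing cells of any type moved in the same direction as the machinery. Of 6 such genes all were below 0 and 4 fell (*Bub1*, *Aurkb*, *Ccnb1* and *Cdk1*), against 3.37% of all genes tested, with a median log2 difference of -1.10. Their summed level was 112 against 50.9 RPKM in iHBs, 77.8 against 28.1 and 20.6 RPKM in iHPs, and 76.3 against 47.7 and 49.7 RPKM in iBECs. This sum was below its control in all 5 libraries, both of iBECs included, and its part in the differences of the replication genes was not tested.

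Markers of other cells that divide in a fetal liver also differed between libraries. The summed level of 6 mesenchymal markers was 2675 against 842 RPKM in iHBs, 1717 against 499 and 761 RPKM in iHPs, and 1954 against 2822 and 1270 RPKM in iBECs. All 6 were below 0 and none passed the test of genotype. The sum of 6 erythroid markers was between 2.22 and 3.90 RPKM in the 3 iBEC libraries, 110 against 22.8 RPKM in iHBs and 71.2 against 7.30 and 15.9 RPKM in iHPs, and 1 of 2 tested, *Hbb-b1*, fell. The sum of 5 macrophage markers was between 676 and 3097 RPKM with none past the test of genotype, and that of 5 endothelial markers between 1.59 and 5.50 RPKM. Of 6 hepatocyte markers 4 fell (*Alb*, *Ttr*, *Hnf4a* and *Serpina1a*), while *Tat* (log2 difference -1.19) and *Apoa1*, which lay above 0 (0.65), did not pass. Of 5 biliary markers *Krt7* and *Krt19* rose and *Spp1* fell, while *Epcam* (0.82) and *Sox9* (-0.36) did not pass. Over all genes tested, 3.37% fell and 6.2% rose. No marker of these lists was at 0 in all libraries. Between L1L2_Alb iBECs and L1L2_Alb iHPs, the mesenchymal *Dcn* (log2 difference 4.70, adjusted p = 0.0171 by limma) and *Lum* (4.81, adjusted p = 0.0255 by limma) were called higher in iBECs. So were the macrophage *Emr1* (1.99, adjusted p = 0.0162 by limma) and the hepatocyte markers *Alb* (2.97) and *Tat* (5.09). No marker was called lower there, against 2.96% of the genes tested that were higher and 0.447% that were lower. The part of these cells in the differences of the replication genes was not tested.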

How the data were processed

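Libraries of cultured mouse fetal liver cells were made with the TruSeq RNA v2 kit from total RNA and sequenced. Per the labels, the submitters' processing notes name Bowtie 0.12.2 and the build mm8, while the counting method and annotation are not given in the sources used here. The authors deposited 1 table of RPKM values (the unit was inferred from the values, in which those of short genes moved by whole reads), with no scaling between libraries. Of 23471 entries, 4 with a repeated symbol were left out.

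Values were changed to log2(RPKM + 1), so fold changes of low genes are understated, and limma 3.58.1 was fitted to the genes whose mean reached 1 RPKM (lmFit, eBayes with trend, R 4.3.3), with stage as a block and 4 residual degrees of freedom. Adjusted p-values are two-sided, by the Benjamini-Hochberg method over all 13421 genes, with a threshold of 0.05. L1L2_Alb iBECs and iHPs were fitted alone on 4 libraries. Depth, 18436865 to 33229075 reads, was recovered from the values and used for precision only. Values in every library are given for the genes past the test and, in each role, for the 2 genes with the smallest p and the gene with the highest mean. Called genes of the other lists are named. The genes and lists were chosen with earlier results of these data known. Promoter letters were searched in RefSeq sequences of GRCm38.p6 with Python 3.11.15, and exon overlaps in the GENCODE annotation of the same build. Alternatives were the pseudocount, the scaling, the filter, the moderation, the replicate block, and leaving out or averaging libraries or stages. The fits were tested on simulated data.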

Additional observations from a re-analysis of the deposited data

Results flagged for a closer look

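For 6 of the 39 genes, both libraries labelled L1L2_Alb were below the control in iHPs and above it in iBECs. This share is close to the 14.4% of all genes tested that had the pattern, so it does not set the 39 genes apart. The difference between the stages (mean log2 difference in iBECs minus that in iHPs, 2 libraries each) was 1.56 for *Cdt1*, 1.03 for *Pold1*, 0.91 for *Pcna*, 0.67 for *Pold2*, 0.60 for *Orc6* and 0.45 for *Gins2*. For *Cdt1* the means were -1.24 (SD 0.11) in iHPs and 0.32 (SD 0.138) in iBECs, and for *Pcna* -0.80 (SD 0.157) and 0.11 (SD 0.122). The 2 libraries of a stage share their control, whose own error these SDs leave out. The test of the interaction of genotype and stage by limma gave *Cdt1* an adjusted p of 0.895 and the other 5 an adjusted p of 1.00, so none of these differences passed. With upper-quartile scaling only *Cdt1* and *Pold2* of the 39 genes showed this pattern. Its share over all genes was not counted under that scaling, so this drop cannot be read as particular to the 39 genes.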

How the results depend on the processing

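The fitted difference between L1L2_Alb and control was below 0 for 30 to 38 of the genes tested among the 39 under all 14 alternatives, whereas the number that passed, 4 as reported, moved with most of them. It was 11 with upper-quartile scaling and 12 with quantile normalization, where 577 and 616 of the genes tested fell. Without the filter on low values it was 0, with 211 of 20025 genes tested lower and 475 higher. It was 0 without the iHB stage (99 of 13326 genes tested lower, 227 higher) and 0 without the iHP stage. Without the iBEC stage it was 14, with 904 of 13300 genes tested lower and 545 higher. With the libraries of a condition averaged it was 1 (*Rrm2*, higher). Leaving out 1 library gave 0 to 7. With a pseudocount of 0.1 it was 3, all lower, with 384 of 13421 genes tested lower and 843 higher. With a mean of at least 5 RPKM it was 5, all lower (319 of 9738 genes tested lower, 769 higher). Without trend it was 3, all lower (458 of 13421 lower, 770 higher). *Pold2* turned to 0.13 without the iHB stage and 0.0501 without the iHP stage. Between iBECs and iHBs, 1 gene (*Rrm2*) passed with libraries averaged, and 0 to 1 with 1 library left out. Between L1L2_Alb iBECs and iHPs, 1 gene (*Cdt1*) passed with upper-quartile scaling. The interaction and the contrast of iHPs with iHBs called 0 of the 39 genes under every alternative run. With the replicate block, the number in the title as a pair, L1L2_Alb iBECs against iHPs called 0 of the 39 genes and 708 genes higher and 203 lower in place of 397 and 60. The labels do not say what the number marks, so it was not taken as a pairing. Libraries of the same number did not deviate together (correlation -0.0216 over 13421 genes), which cannot tell whether they share a preparation. Genes called over the whole table for genotype ranged from 113 to 875 higher and from 19 to 904 lower. The causes of these changes were not tested. With 1 control library a stage, no stage alone could be tested, and at 18 reads *Orc1* in L1L2_Alb iHP 2 was near the limit of the depth.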
